A study of Homo sapiens with 12 samples.

Results

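The 10 genes described here encode the enzymes that write, copy and remove DNA methylation and the core of polycomb repressive complex 2 (PRC2). They are DNMT1, UHRF1, DNMT3A, DNMT3B, TET1, TET2, TET3, EZH2, EED and SUZ12, chosen by name and compared across 3 cell lines. All 10 were found among the 60671 genes of the count table, and all 10 passed the filter on low counts that left 18626 genes to be tested. RNA was sequenced from the human leukaemia line K562 and from 2 lines derived from it, with 4 replicates per line. K562 is the parental line and carries no edit. K/VP.5 is a single clone obtained from K562 by selection with etoposide, a drug that traps topoisomerase II on DNA. K562/SSedit-2, written SSedit-2 from here on, is a single clone of K562 in which CRISPR/Cas9 with a repair template changed the 5′ splice site between exon 19 and intron 19 in 2 of the 3 TOP2α alleles. All lines were kept in DMEM with 10% FBS and collected in mid-log growth. Since each derived line is 1 clone, the effect of selection or editing and a difference between clones cannot be told apart.

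Total counts per sample ranged from 28981722 to 43648830. Levels are given in CPM, the counts of a gene scaled to the counts of the sample in tested genes with TMM factors, and 3 counts correspond to 0.0691 to 0.102 CPM. The labels were checked on the edited gene, TOP2A, whose level in replicates 1 to 4 was 488, 352, 380 and 388 CPM in K562 cells, 281, 269, 282 and 268 CPM in K/VP.5 cells, and 203, 177, 179 and 208 CPM in SSedit-2 cells. The 3 lines did not overlap, with SSedit-2 lowest (log2 fold change -1.07 from K562, SE 0.09, adjusted p = 1.05e-06) and K/VP.5 between (-0.55, SE 0.089, adjusted p = 8.58e-05). The markers of erythroleukaemia cells, 12 of 12 of which were tested, summed to 3650 to 4670 CPM in K562 cells, 3290 to 3520 CPM in K/VP.5 and 4980 to 5480 CPM in SSedit-2 cells, with TFRC, the transferrin receptor, the most abundant in every line.

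Among the libraries, K562 replicate 1 stood apart. It differed from the other K562 replicates by a chi-square statistic of 62.3 to 65.6 per degree of freedom across genes, whereas the 15 other pairs of replicates of a line gave 5.39 to 22.5. Calls of the 10 genes that rest on this library are given with and without it, as are some counts of the gene lists. Ratios, sums and the tests of TOP2A and of cell type markers are given only with it. Leaving it out was planned for the 10 genes, and was added for the gene lists after the data were seen. The comparisons share samples, so their values are given side by side and not as independent results. The p-values measure only the spread between these samples, which may be technical. In bulk samples, fewer cells of a type and less RNA per cell cannot be told apart.

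As background, DNA methylation is a methyl group on cytosine, mostly at CpG, that is set by DNMT3A and DNMT3B and copied after replication by DNMT1, which UHRF1 brings to CpG sites methylated on 1 strand. The TET enzymes oxidise the methyl group, which leads to its removal. PRC2 methylates histone H3 at lysine K27 through its catalytic subunit EZH2, and needs EED and SUZ12 to be stable and active.

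The K/VP.5 line shows what differs after selection with etoposide. There DNMT3A was 2.62-fold higher than in K562 cells and SUZ12 was 0.489-fold, and these were the 2 of the 10 genes to change by at least 2-fold. EZH2 rose by a smaller amount, to 1.33-fold, and EED did not pass the test, so that of the 3 core PRC2 genes 1 was higher, 1 was lower and 1 did not pass. Over the 10 genes, 4 passed as higher at an adjusted p under 0.1 (26.2% of all tested genes did) and 2 as lower (26.1% of all tested genes), and the 2 that were also 2-fold stand beside 15.6% of all tested genes. The median log2 fold change was 0.002 over the 10 genes and 0.0067 over all tested genes. With single libraries left out, the number higher was 3 or 4, the number lower was 3 without K562 replicates 1, 3 or 4 or K/VP.5 replicate 2 and 4 without K562 replicate 2, and the number 2-fold was 1 without K562 replicate 1 or K/VP.5 replicate 4. At 3 of the 10 genes (DNMT3A, EZH2 and SUZ12) the replicates of K/VP.5 and K562 cells did not overlap, beside 43% of all tested genes.

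In SSedit-2 cells compared with K562 cells, which shows what differs after the splice site edit, TET3 was the only 1 of the 10 genes to pass, as higher (4.86% of all tested genes passed as higher and 7.79% as lower). None passed as lower and none was 2-fold, where 2.06% of all tested genes were. With edgeR, the count at an unadjusted p under 0.05 was also 1 higher and 0 lower, and the DESeq2 Wald test and limma voom each gave 1 higher and 0 lower and 0 at 2-fold. This count rested on single libraries: without K562 replicate 1, TET3 passed with DNMT3A (log2 fold change -0.25, adjusted p = 0.0215) and SUZ12 (log2 fold change 0.22, adjusted p = 0.051), 3 in all, with 9.56% of all tested genes higher and 9.94% lower. Without K562 replicate 2 or 4, or without SSedit-2 replicate 3 or 4, the count was 0.

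SSedit-2 compared with K/VP.5 cells sets the derived lines against each other. Here 2 genes passed as higher, SUZ12 and TET2 (26.2% of all tested genes), and 4 as lower, DNMT3A, DNMT3B, EZH2 and DNMT1 (27.8% of all tested genes), and DNMT3A and SUZ12 were 2-fold (15.8% of all tested genes). The replicates of these 6 genes did not overlap between the lines, beside 47.4% of all tested genes.

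**Figure D1:**
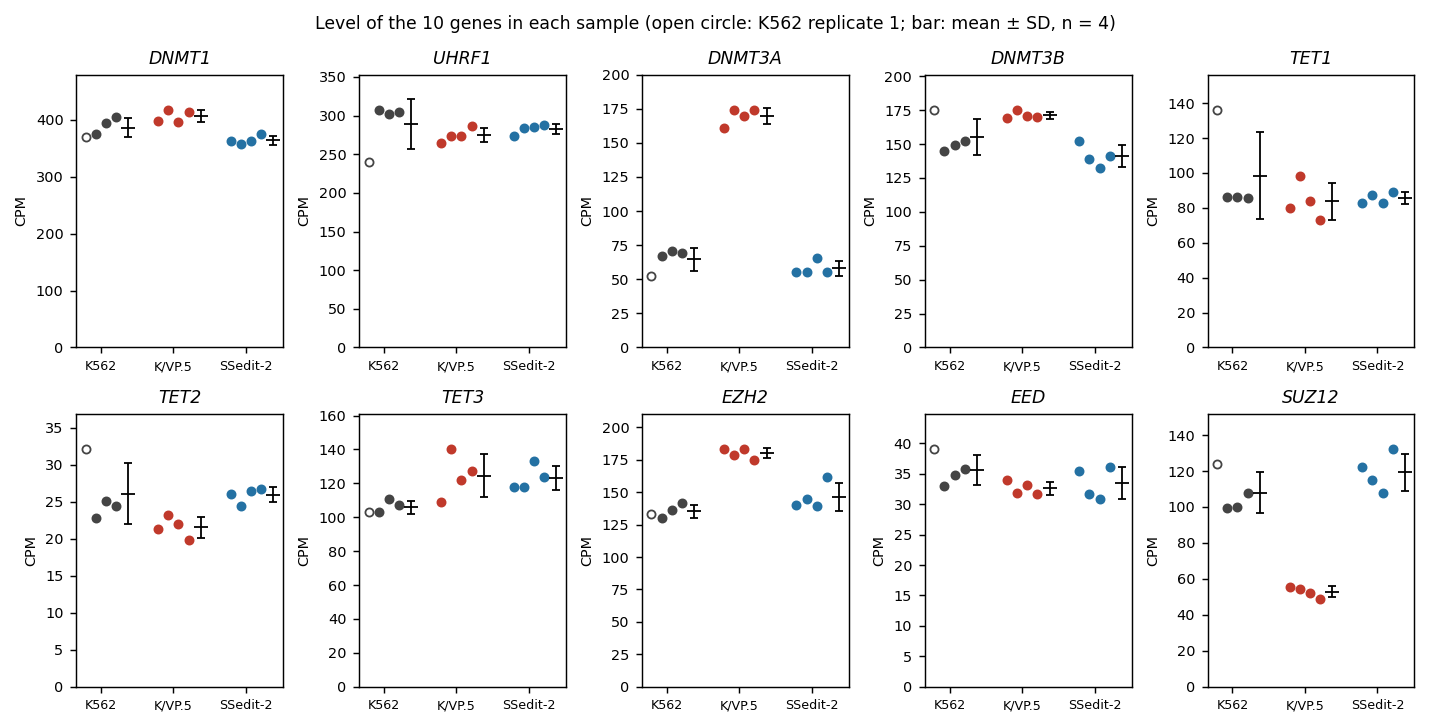
Level (CPM, vertical axes from 0) of the 10 genes in each sample of K562, K/VP.5 and SSedit-2 cells, with points for replicates 1 to 4, an open circle for K562 replicate 1, and bars for the mean ± SD (n = 4). DNMT3A lies at 161 to 174 CPM in K/VP.5 cells and at 52.4 to 70.4 CPM in the other lines, and SUZ12 at 48.7 to 55.7 CPM in K/VP.5 cells and at 99.7 to 132 CPM in the other lines.

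**Figure D2:**
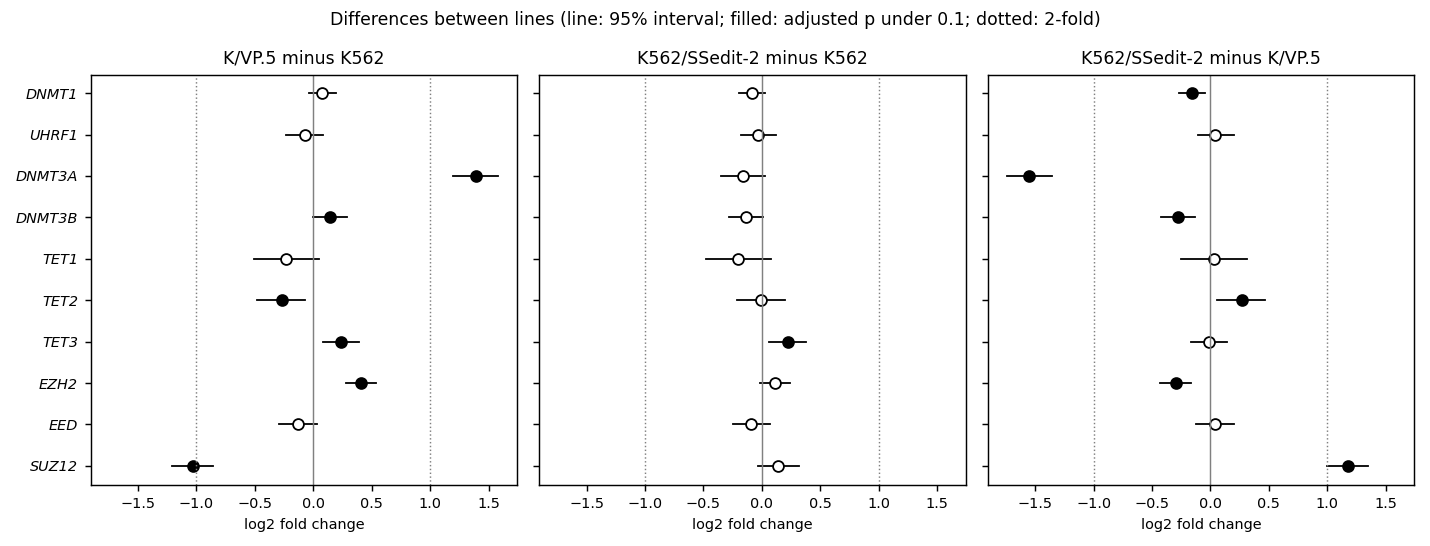
Log2 fold change (horizontal axis) of the 10 genes in the 3 comparisons, with lines for 95% intervals, filled points for an adjusted p under 0.1 and dotted lines at 2-fold. DNMT3A (1.39 and -1.55) and SUZ12 (-1.03 and 1.17) lie beyond 2-fold in both comparisons with K/VP.5 cells, and TET3 (0.22) is the filled point of SSedit-2 minus K562.

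Per length of summed annotated exons, UHRF1 had the highest level in each line, with a mean ± SD of 56.1 ± 6.28 CPM per kb in K562 cells, 53.4 ± 1.63 in K/VP.5 and 54.9 ± 1.27 in SSedit-2 cells. DNMT1 followed at 25.1, 26.4 and 23.7 CPM per kb, and DNMT3B at 22.6, 24.9 and 20.5. The replicates of DNMT1 and DNMT3B overlapped on this scale in K562 cells and not in the other lines. TET2 was lowest throughout, at 1.58, 1.31 and 1.58 CPM per kb. DNMT3A stood 9 of 10 in K562 cells (4.7 CPM per kb, overlapping EED at 5.1), 5 of 10 in K/VP.5 cells (12.3) and 9 of 10 in SSedit-2 cells (4.2, overlapping EED at 4.78). SUZ12 moved the other way in the order, from 4 of 10 in K562 cells (16.5 CPM per kb) to 8 of 10 in K/VP.5 cells (8.05, overlapping TET1 at 8.72), and was again 4 of 10 in SSedit-2 cells (18.2, overlapping DNMT3B at 20.5). The order depends on the choice of length. With the length of the canonical transcript, chosen after the lengths were seen, UHRF1 and DNMT1 overlapped in K562 cells at 74 and 73.2 CPM per kb. They also overlapped in SSedit-2 cells (72.5 and 69), and DNMT1 was above UHRF1 in K/VP.5 cells (77.1 and 70.5). EZH2 stood 3 of 10 in each line, and in K/VP.5 cells (67.8) it overlapped UHRF1. DNMT3A kept its places, and SUZ12 stood 5, 7 and 5 of 10 (in K/VP.5 cells at 11.7, overlapping TET3 at 10.3). EED (17.1 and 16 CPM per kb in K562 and SSedit-2 cells) no longer overlapped DNMT3A (6.87 and 6.15).

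DNMT3A and DNMT3B methylate DNA with no methylated template strand. DNMT3A (ENSG00000119772) lies on the minus strand of chromosome 2 in GRCh38, from 25227855 to 25342590, and RefSeq gives it 6 start sites in 2 clusters. The 300 bases around the outermost start of each cluster are printed because DNMT3A has the largest change of the 10 genes and because a count per gene does not separate the starts. Both are from RefSeq (GRCh38.p14), minus strand, 5′ to 3′, chr2:25342541-25342840 for the outer and chr2:25252266-25252565 for the inner start. In these and the windows of PRC2 genes, capitals mark every match, on either strand, to 5 motifs: TTTCGCGC, TTTGGCGC and TTTCCCGC, forms of the E2F motif, CCAAT, the core of the NF-Y motif, and GGGCGG, the GC box of SP factors.
DNMT3A outer start: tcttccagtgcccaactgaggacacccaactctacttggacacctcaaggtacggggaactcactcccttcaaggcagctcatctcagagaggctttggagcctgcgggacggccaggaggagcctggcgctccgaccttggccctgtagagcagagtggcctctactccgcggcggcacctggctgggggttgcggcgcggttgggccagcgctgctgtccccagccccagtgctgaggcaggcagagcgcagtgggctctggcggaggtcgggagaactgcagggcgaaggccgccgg
DNMT3A inner start: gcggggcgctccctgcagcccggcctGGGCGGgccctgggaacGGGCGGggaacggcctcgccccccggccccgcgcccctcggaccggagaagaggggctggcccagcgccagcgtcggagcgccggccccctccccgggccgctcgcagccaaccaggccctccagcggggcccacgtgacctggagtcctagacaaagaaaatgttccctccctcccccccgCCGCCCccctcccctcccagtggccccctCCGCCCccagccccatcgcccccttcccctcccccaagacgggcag
The outer window has 18 CpG and 67% G and C, and the inner window 28 CpG and 78.3%, beside medians of 14 CpG and 58.7% over 35116 RefSeq windows of this length. The outer window holds none of the 5 motifs and the inner window holds GGGCGG 4 times. Of the 6 DNMT3A windows, 4 hold GGGCGG, which 45% of all windows do, and none holds an E2F form or CCAAT.

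DNMT3A measured 52.4, 67.1, 70.4 and 68.9 CPM in K562 replicates 1 to 4, 161, 174, 170 and 174 CPM in K/VP.5 cells, and 55.4, 55.5, 65.7 and 55.1 CPM in SSedit-2 cells. Every K/VP.5 sample was far above every sample of the other lines, which overlapped each other. The mean ± SD was 64.7 ± 8.32 CPM in K562 cells, 170 ± 6.44 CPM in K/VP.5 and 57.9 ± 5.18 CPM in SSedit-2 cells (n = 4 each). The log2 fold change from K562 to K/VP.5 cells was 1.39 (SE 0.09, adjusted p = 2.17e-09), and 10.3% of all tested genes differed by more. It was 1.28 without K562 replicate 1, whose DNMT3A level is the lowest of all samples, and 1.28 to 1.45 over all 17 alternatives. From K562 to SSedit-2 cells it was -0.16 (SE 0.089, adjusted p = 0.311), which passed as lower without K562 replicate 1 and in no other alternative. From K/VP.5 to SSedit-2 cells it was -1.55 (SE 0.09, adjusted p = 5.86e-10).

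DNMT3B (ENSG00000088305, chromosome 20) varied much less. It measured 175, 145, 149 and 152 CPM in K562 cells, 169, 175, 171 and 170 CPM in K/VP.5 cells and 152, 139, 132 and 141 CPM in SSedit-2 cells. K562 replicate 1 reached the highest K/VP.5 sample, and the other K562 samples were below them. From K562 to K/VP.5 cells DNMT3B passed narrowly (log2 fold change 0.14, SE 0.068, adjusted p = 0.0996), and the call was lost in 11 of 17 alternatives, over all of which the adjusted p-value ran from 0.00635 to 0.372. It was lost in the fits without K562 replicates 2, 3 or 4 or without any 1 of the K/VP.5 replicates, while without K562 replicate 1 it was 0.18 (adjusted p = 0.0151). From K/VP.5 to SSedit-2 cells DNMT3B fell by 0.28 on the log2 scale (adjusted p = 0.0028), with no overlap. Per length of summed exons, the ratio of DNMT3B to DNMT3A was 4.92 ± 1.18 in K562 cells (4.25 to 6.68, highest in replicate 1), 2.02 ± 0.0626 in K/VP.5 cells and 4.92 ± 0.639 in SSedit-2 cells. With canonical lengths, an alternative chosen after the ratios were seen, it was 5.33, 2.19 and 5.34.

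DNMT1 (ENSG00000130816), which copies methylation to the new strand, and UHRF1 (ENSG00000276043), which recruits it, both lie on chromosome 19. DNMT1 measured 370, 375, 395 and 405 CPM in K562 cells, 398, 417, 397 and 414 CPM in K/VP.5, and 362, 357, 362 and 375 CPM in SSedit-2 cells. The K562 samples overlapped those of both derived lines, which did not overlap each other. DNMT1 did not pass against K562 in either line (log2 fold change 0.07 in K/VP.5, adjusted p = 0.282, and -0.09 in SSedit-2, adjusted p = 0.375), except that with upper-quartile scaling it passed as higher in K/VP.5 cells (adjusted p = 0.0815). It fell by 0.16 on the log2 scale from K/VP.5 to SSedit-2 cells (SE 0.054, adjusted p = 0.0213). That call was lost without the filter (adjusted p = 0.132) and without K/VP.5 replicate 2 (adjusted p = 0.1).

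UHRF1 measured 240, 307, 302 and 305 CPM in K562 cells, 265, 274, 274 and 286 CPM in K/VP.5, and 273, 284, 285 and 288 CPM in SSedit-2 cells. K562 replicate 1 was the lowest and the other K562 replicates were the highest of all 12 samples. UHRF1 passed in none of the 3 comparisons with all samples. Without K562 replicate 1, it was lower in K/VP.5 cells than in K562 (log2 fold change -0.17, SE 0.051, adjusted p = 0.0108), against -0.07 (SE 0.073, adjusted p = 0.458) with that library. DNMT1 and UHRF1 are both known to be made most in S phase.

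Of the TET genes, whose enzymes oxidise 5-methylcytosine, TET3 was higher and TET2 lower in K/VP.5 cells than in K562, and TET1 passed in no comparison. TET3 (ENSG00000187605, chromosome 2) measured 103, 103, 111 and 107 CPM in K562 cells, 109, 140, 122 and 127 CPM in K/VP.5, and 118, 118, 133 and 124 CPM in SSedit-2 cells. All SSedit-2 samples and all K/VP.5 samples but replicate 1 were above all K562 samples. TET3 was higher in both derived lines, with a log2 fold change of 0.24 in K/VP.5 (SE 0.074, adjusted p = 0.0154) and 0.22 in SSedit-2 cells (SE 0.074, adjusted p = 0.0814). The call in K/VP.5 cells was kept in all 17 alternatives. The call in SSedit-2 cells was lost in 6 of 17, over all of which the adjusted p-value ran from 0.0379 to 0.22. It was lost in the fits without K562 replicates 2 or 4 and without SSedit-2 replicates 3 or 4.

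TET2 (ENSG00000168769, chromosome 4) had the lowest level per length, and measured 32.1, 22.8, 25.1 and 24.4 CPM in K562 cells, 21.3, 23.2, 22 and 19.8 CPM in K/VP.5, and 26.1, 24.5, 26.5 and 26.8 CPM in SSedit-2 cells. K562 replicate 1 was the highest of the 12 samples, and all SSedit-2 samples were above all K/VP.5 samples. TET2 was lower in K/VP.5 cells than in K562 (log2 fold change -0.27, SE 0.097, adjusted p = 0.0312), with -0.18 (adjusted p = 0.0539) without K562 replicate 1. It was higher in SSedit-2 cells than in K/VP.5 (log2 fold change 0.27, SE 0.098, adjusted p = 0.0337). Between SSedit-2 and K562 cells the log2 fold change was -0.01 (adjusted p = 0.986), and its sign turned in 10 of 17 alternatives.

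TET1 (ENSG00000138336, chromosome 10) measured 136, 86.1, 86.2 and 85.6 CPM in K562 cells, 79.9, 98.3, 84 and 73 CPM in K/VP.5, and 83, 87.6, 82.5 and 89.3 CPM in SSedit-2 cells. Outside K562 replicate 1 the lines overlapped. From K562 to K/VP.5 cells its log2 fold change was -0.23 (SE 0.13, adjusted p = 0.165) with K562 replicate 1 and -0.06 (adjusted p = 0.584) without it. It passed as lower in that comparison without the filter and when K562 replicate 2, 3 or 4 or K/VP.5 replicate 2 was left out (adjusted p of 0.0141 at the lowest).

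The 3 core PRC2 genes encode the methyltransferase EZH2 (ENSG00000106462), EED (ENSG00000074266), which reads the methylated histone tail, and SUZ12 (ENSG00000178691), which holds the complex together. Their promoter windows are printed because the proteins work in 1 complex while the transcripts differed in opposite directions in K/VP.5 cells. All are from RefSeq (GRCh38.p14), 5′ to 3′: SUZ12 on the plus strand at chr17:31936757-31937056, the outer of 2 starts of EZH2 on the minus strand at chr7:148884242-148884541, and EED on the plus strand at chr11:86244503-86244802. Capitals mark the same 5 motifs.
SUZ12: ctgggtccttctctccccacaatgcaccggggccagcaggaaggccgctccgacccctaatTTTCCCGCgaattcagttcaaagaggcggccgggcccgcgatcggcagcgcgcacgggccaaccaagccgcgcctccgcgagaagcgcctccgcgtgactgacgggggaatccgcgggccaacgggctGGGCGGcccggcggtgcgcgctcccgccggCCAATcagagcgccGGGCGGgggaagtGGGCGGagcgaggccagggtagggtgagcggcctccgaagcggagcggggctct
EZH2: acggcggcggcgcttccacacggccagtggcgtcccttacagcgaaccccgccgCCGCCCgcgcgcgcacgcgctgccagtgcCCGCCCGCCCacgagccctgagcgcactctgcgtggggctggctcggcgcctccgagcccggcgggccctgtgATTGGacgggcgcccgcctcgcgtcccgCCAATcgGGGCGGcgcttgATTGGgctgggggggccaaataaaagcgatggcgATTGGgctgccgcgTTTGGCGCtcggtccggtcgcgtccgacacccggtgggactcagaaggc
EED: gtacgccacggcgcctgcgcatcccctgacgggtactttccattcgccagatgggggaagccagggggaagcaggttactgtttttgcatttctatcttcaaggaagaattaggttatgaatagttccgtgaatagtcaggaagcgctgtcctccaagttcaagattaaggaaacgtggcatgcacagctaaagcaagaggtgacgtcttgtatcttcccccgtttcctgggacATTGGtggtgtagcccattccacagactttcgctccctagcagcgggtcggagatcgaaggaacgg
The SUZ12 window has 40 CpG and holds TTTCCCGC once, CCAAT once and GGGCGG 3 times. The EZH2 window has 46 CpG and holds TTTGGCGC once, CCAAT 4 times and GGGCGG 4 times, of which 2 overlap. The EED window has 16 CpG and 52.3% G and C and holds CCAAT once. Over all 35116 windows, TTTCCCGC occurs in 1.63%, TTTGGCGC in 0.652%, TTTCGCGC in 0.515%, any of these 3 in 2.74% and CCAAT in 34.6%. All 10 genes were matched, with 22 windows, and an E2F form occurs in 5 of them, at DNMT1, UHRF1, EZH2 and SUZ12. A match says only that these letters are present.

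SUZ12 measured 124, 99.7, 100 and 108 CPM in K562 cells, 55.7, 54.2, 52.4 and 48.7 CPM in K/VP.5, and 122, 115, 108 and 132 CPM in SSedit-2 cells. All K/VP.5 samples were below all others, and the other lines overlapped. The mean ± SD was 108 ± 11.5, 52.8 ± 3.01 and 119 ± 10.2 CPM in the same order. From K562 to K/VP.5 cells SUZ12 fell by 1.03 on the log2 scale (SE 0.083, adjusted p = 3.44e-08), and 15.1% of all tested genes differed by more. Over 17 alternatives the log2 fold change was -1.09 to -0.96, so the call was kept, but the 2-fold threshold was missed without K562 replicate 1 (-0.98), without K/VP.5 replicate 4 and with upper-quartile scaling. From K562 to SSedit-2 cells it was 0.14 (SE 0.082, adjusted p = 0.339), and from K/VP.5 to SSedit-2 cells 1.17 (SE 0.084, adjusted p = 7.33e-09).

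EZH2 measured 133, 130, 136 and 142 CPM in K562 cells, 183, 179, 183 and 175 CPM in K/VP.5, and 140, 145, 139 and 162 CPM in SSedit-2 cells. The K/VP.5 samples were above all others. EZH2 rose from K562 to K/VP.5 cells by a log2 fold change of 0.41 (SE 0.062, adjusted p = 4.41e-05), which was 0.37 to 0.48 over 17 alternatives. Between K562 and SSedit-2 cells the difference was 0.11 (SE 0.062, adjusted p = 0.316), and from K/VP.5 to SSedit-2 cells EZH2 fell by 0.30 (SE 0.062, adjusted p = 0.000803). EZH1, the paralog that can replace EZH2 in the complex, did not pass in any comparison, and the ratio of EZH2 to EZH1 per length of summed exons was 3.5 ± 0.169 in K562 cells, 4.28 ± 0.29 in K/VP.5 and 3.5 ± 0.271 in SSedit-2 cells. With canonical lengths, again chosen after the ratios were seen, it was 9.42, 11.5 and 9.41, so its size depends on the length taken. EED ranged from 30.8 to 39 CPM over the 12 samples, and its lines overlapped. Its log2 fold changes were -0.13 (SE 0.075, adjusted p = 0.177), -0.09 (adjusted p = 0.53) and 0.04 (adjusted p = 0.71) in the 3 comparisons in order, and it passed in 1 alternative, as lower in K/VP.5 cells without K562 replicate 2 (adjusted p = 0.0763).

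Reads shared with near-identical or overlapping genes are an uncertainty for some of these counts, since the strand setting and the handling of multi-mapped reads are not stated. SUZ12 (chromosome 17, 31937007 to 32001038) has a partial copy, SUZ12P1, with 277 to 649 counts per sample. The copy lies at 30731886 to 30776402 on the same chromosome, inside the 5 Mb before SUZ12 whose genes are described below. SUZ12P1 itself was lower in K/VP.5 cells, at 14.5 ± 0.613 CPM in K562 cells, 8.94 ± 0.88 CPM in K/VP.5 and 12.8 ± 0.906 CPM in SSedit-2 cells (log2 fold change -0.70 from K562 to K/VP.5, adjusted p = 1.08e-05). Processed pseudogenes of EZH2 (0 to 8 counts), TET1 (0 to 1), DNMT3A and EED (both at 0) had few or no counts. Of the exons of DNMT1, TET3 and EED, 0.54%, 3.01% and 4.1% overlap exons of other genes.

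The genes around SUZ12 were also lower in K/VP.5 cells. Of the 85 tested protein-coding genes within 5 Mb of it on chromosome 17, 66 passed as lower and 6 as higher (26.1% and 26.2% of all tested genes). The median log2 fold change of the 85 genes was -0.49 (quartiles -0.71 and -0.25), beside 0.03 over the 818 tested protein-coding genes of the chromosome. SUZ12 lay beyond most of them: 7 of the 85 were lower by more. By distance, the median was -0.50 over 56 genes in the 5 Mb before SUZ12, -0.49 over 29 genes in the 5 Mb after it, -0.19 over 68 genes from 5 to 10 Mb, and 0.12 over 101 genes from 10 to 15 Mb. No tested protein-coding gene lies 5 to 10 Mb before it, and the next 41 genes, 10 to 15 Mb before it, had a median of 0.09. Without K562 replicate 1, the median of the 88 genes then tested within 5 Mb was -0.47. For SSedit-2 minus K562, the median of the 85 genes was 0.00. TOP2A lies 8.43 Mb from SUZ12 on this chromosome. DNA copies were not analysed here, and the part of the region in the level of SUZ12 was not tested.

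**Figure D3:**
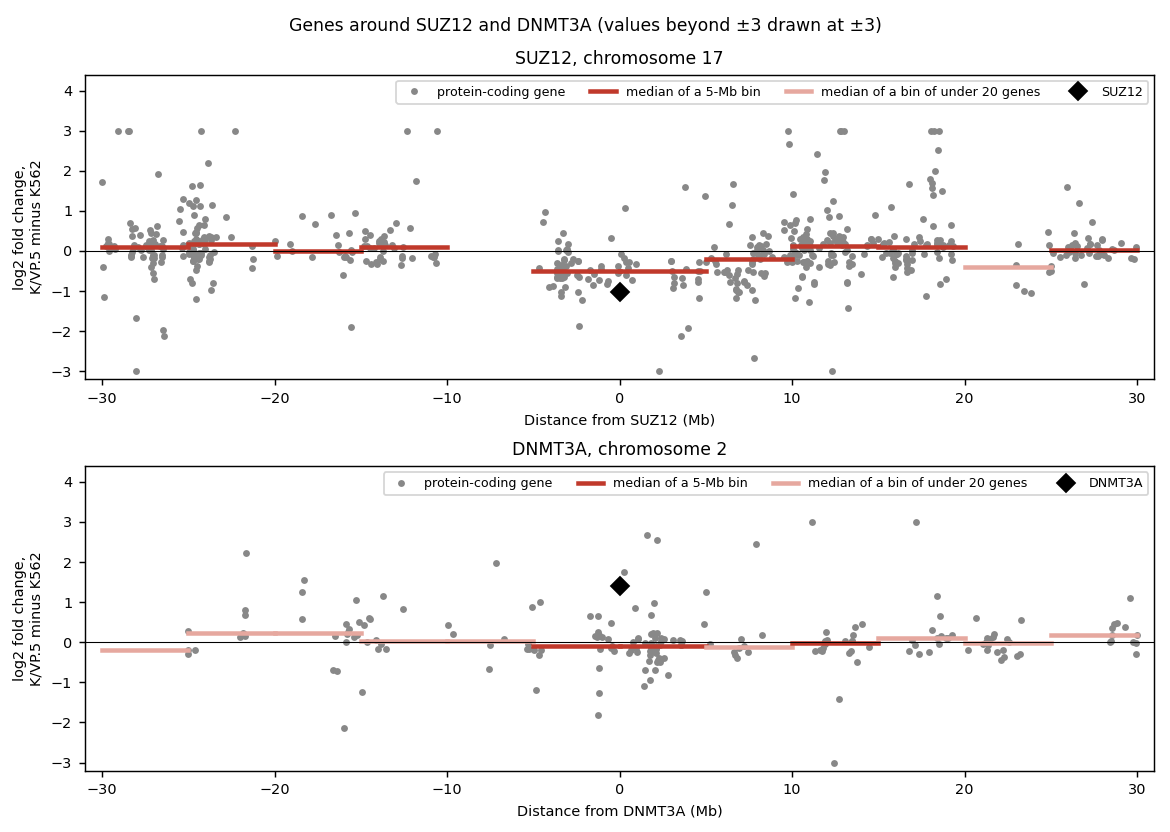
Log2 fold change, K/VP.5 minus K562 (vertical axis), of tested protein-coding genes by distance (Mb, horizontal axis) from SUZ12 on chromosome 17 and from DNMT3A on chromosome 2, with bars for the medians of 5-Mb bins, pale where a bin holds under 20 genes. The bins on either side of SUZ12 have medians of -0.50 and -0.49, and those on either side of DNMT3A -0.09 and -0.10.

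The surroundings of DNMT3A did not move with it. The 74 tested protein-coding genes within 5 Mb had a median log2 fold change of -0.10 from K562 to K/VP.5 cells, and 3 of them were higher by more than DNMT3A. ASXL2, 0.521 Mb away, was lower (-0.26). Around EZH2 the median of 47 genes was 0.18, with 15 above EZH2 itself, and around TET3 the median of 66 genes was 0.12. Around TET2 the median of 29 genes was -0.21, near the -0.27 of TET2. TET1 lies on chromosome 10, whose 484 genes had a median of -0.33, but in a stretch of 56 genes with a median of 0.01. In SSedit-2 minus K562, the medians of the genes around each of the 10 lay between -0.20 (231 genes around UHRF1, itself at -0.03) and 0.04 (29 genes around TET2), and for TET3, the gene that passed, the median was -0.03.

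The genes whose levels over the 12 samples were most like those of DNMT3A and SUZ12 were sought among 12868 tested protein-coding genes, by the root mean square difference of log2 CPM after centring each gene. For DNMT3A these were COX19 (0.107), OBSL1 (0.119) and EHMT1 (0.12). EHMT1, which encodes a histone H3K9 methyltransferase, measured 45.3 ± 1.65 CPM in K562 cells, 113 ± 6.05 CPM in K/VP.5 and 40.4 ± 1.35 CPM in SSedit-2 cells. For SUZ12 they were UBE2D3 (0.0428), MTMR1 (0.0491) and SEPSECS (0.0542), of which UBE2D3, a ubiquitin-conjugating enzyme, measured 491 ± 51.1, 251 ± 10.4 and 554 ± 37.1 CPM in the same order. Of these 6 genes, OBSL1 lies on the chromosome of DNMT3A and none on that of SUZ12.

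**Figure D4:**
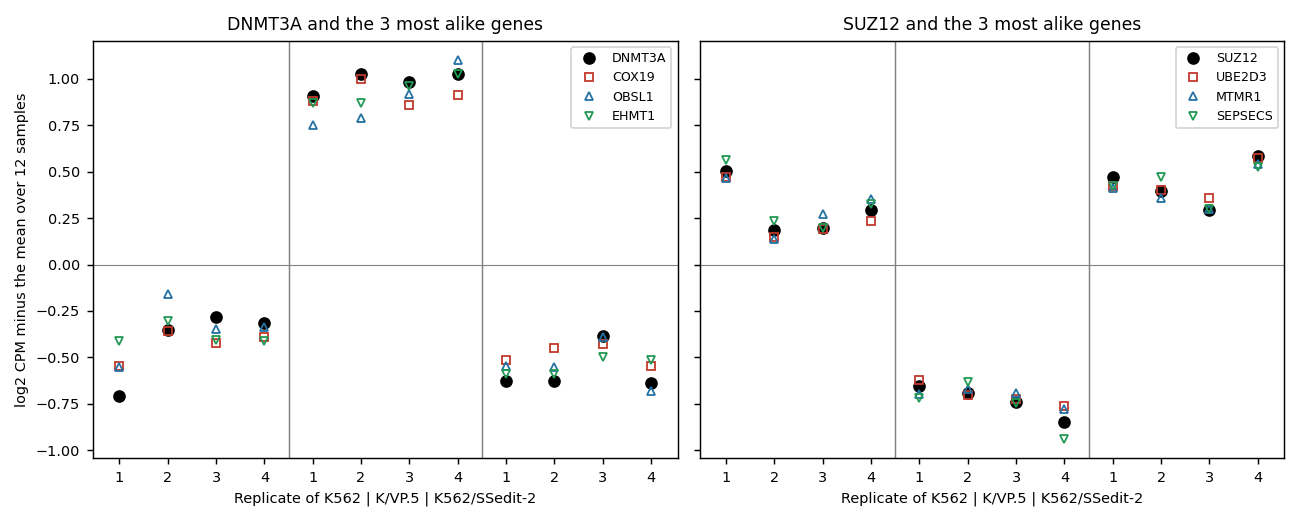
Log2 CPM minus the gene's mean over the 12 samples (vertical axis) in replicates 1 to 4 of K562, K/VP.5 and SSedit-2 cells (horizontal axis), for DNMT3A, SUZ12 and the 3 genes most like each. The root mean square differences are 0.107 to 0.12 for DNMT3A and 0.0428 to 0.0542 for SUZ12.

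Transcripts of the proteins that bind methylated CpG, the readers of the mark, were mostly lower in K/VP.5 cells. Of 8 readers tested, 7 passed as lower and none as higher (26.1% and 26.2% of all tested genes), with a median log2 fold change of -0.54, and 2 were 2-fold (15.6% of all tested genes). With edgeR at an unadjusted p under 0.05, with DESeq2 and with limma voom the counts were also 7 and 0, but upper-quartile scaling gave 6 lower and 1 higher, and leaving out single libraries gave 6 or 7 lower, with 7 without K562 replicate 1. The zinc finger reader ZBTB38 had the largest difference, with 21.8 ± 4.76 CPM in K562 cells, 1.6 ± 0.256 CPM in K/VP.5 and 31.3 ± 3.9 CPM in SSedit-2 cells (log2 fold change -3.75 from K562 to K/VP.5, SE 0.17, adjusted p = 2.06e-11). MBD1 measured 82.6, 36.3 and 76.8 CPM in the same order (-1.19, SE 0.069, adjusted p = 5.79e-10), and ZBTB33, also called Kaiso, 30.9, 18.4 and 38.4 CPM (-0.75, SE 0.11, adjusted p = 2.13e-05). MBD3, the 1 reader that did not pass (0.14, adjusted p = 0.191), is known to have lost most of its binding to methylated CpG.

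In SSedit-2 against K562 cells, 2 readers were higher, ZBTB38 (log2 fold change 0.52, adjusted p = 0.0245) and ZBTB33 (0.31, adjusted p = 0.0816), and 1 was lower, ZBTB4 (-0.24, adjusted p = 0.0809), named after its values were seen, beside 4.86% of all tested genes higher and 7.79% lower. Without K562 replicate 1 there were 3 higher and 2 lower (9.56% and 9.94% of all tested genes). Without K562 replicates 2 or 3 or SSedit-2 replicates 1 or 4, ZBTB38 alone was left. Without K562 replicate 4 the counts were 1 and 1, and without SSedit-2 replicate 3 or with upper-quartile scaling they were 3 and 0. Against K/VP.5 cells, 6 readers were higher in SSedit-2 cells and 1 was lower (26.2% and 27.8% of all tested genes), with ZBTB38 at 4.27, MBD1 at 1.08 and ZBTB33 at 1.06.

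The partners that help write or copy methylation, 7 of 9 of which were tested, gave 2 higher and 2 lower in K/VP.5 cells (26.2% and 26.1% of all tested genes, list median -0.02). USP7, a deubiquitinase that binds DNMT1 and UHRF1, fell from 279 ± 25.2 CPM in K562 cells to 171 ± 3.73 CPM in K/VP.5 cells and was 316 ± 28.8 CPM in SSedit-2 cells (log2 fold change -0.71, SE 0.076, adjusted p = 9.76e-07 from K562 to K/VP.5). HELLS, a remodeller needed for full methylation, was lower in K/VP.5 cells by a log2 fold change of -0.37 (adjusted p = 0.00436). The higher genes were UHRF2 (0.23) and CDCA7L (0.27), named after their values were seen, and 1 of them was lost without K/VP.5 replicate 1 or 2. In SSedit-2 cells, 1 partner differed from K562, CDCA7, which acts with HELLS (-0.26, adjusted p = 0.00931, beside 7.79% of all tested genes lower), and without K562 replicate 4 there were 1 higher and 2 lower. DNMT3L, the cofactor of the de novo enzymes in germ cells, had 0 to 20 counts per sample. Of 3 genes of the methyl donor cycle, MAT2A, which makes S-adenosylmethionine, was higher in K/VP.5 cells (0.34, adjusted p = 0.00335) and none passed in SSedit-2 compared with K562 cells (1 was lower at an unadjusted p under 0.05 with edgeR, and 0 passed with DESeq2 or limma voom).

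Of the partners of demethylation and repair, 8 of 9 were tested, and 2 were higher and 5 lower in K/VP.5 cells (26.2% and 26.1% of all tested genes, list median -0.21), with 4 to 6 lower when single libraries were left out. IDH2, a mitochondrial enzyme that makes the TET cosubstrate 2-oxoglutarate, fell from 56.2 ± 10.2 CPM in K562 cells to 24.2 ± 1.54 CPM in K/VP.5 cells (log2 fold change -1.21, SE 0.13, adjusted p = 7.5e-07) and was 50.7 ± 7.89 CPM in SSedit-2 cells. GADD45B, a stress-induced gene, measured 1.98, 5.5 and 2.02 CPM in the 3 lines (1.47 in K/VP.5 cells, SE 0.18, adjusted p = 3.44e-06). GADD45A, named after its values were seen, was higher in both K/VP.5 (0.74) and SSedit-2 cells (0.58, adjusted p = 0.00215). In SSedit-2 against K562 cells, 2 of these partners were higher, GADD45A and TDG, and 1 was lower, IDH1 (4.86% and 7.79% of all tested genes). TDG and IDH1 were named after their values were seen. TDG was lost without any 1 of K562 replicates 2 to 4 or SSedit-2 replicates 1, 3 or 4, and IDH1 without SSedit-2 replicate 3.

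The other PRC2 subunits, 11 of 12 of which were tested, gave 4 lower and none higher in K/VP.5 cells (26.1% and 26.2% of all tested genes, list median -0.05). The count of higher genes was also 0 with edgeR at an unadjusted p under 0.05, with DESeq2 and with limma voom, and 1 with upper-quartile scaling, and leaving out single libraries gave 3 to 5 lower, with 3 without K562 replicate 1. Among the lower genes, LCOR and LCORL are listed for their long forms, PALI1 and PALI2, which are the ones that bind PRC2, and counts per gene do not separate these from the other forms. LCOR measured 93.8 ± 12.1 CPM in K562 cells, 60.1 ± 4.02 CPM in K/VP.5 and 110 ± 8.95 CPM in SSedit-2 cells (log2 fold change -0.64, SE 0.092, adjusted p = 2.38e-05), and LCORL 17.7, 11.2 and 19.5 CPM (-0.65, SE 0.096, adjusted p = 3.29e-05). EPOP (-0.68) and AEBP2 (-0.22), named after their values were seen, were the others, and AEBP2 was lost with upper-quartile scaling and without K562 replicate 1, K/VP.5 replicate 3 or K/VP.5 replicate 4. The histone binders RBBP4 and RBBP7 did not pass in any comparison. Between SSedit-2 and K562 cells none passed in either direction (4.86% of all tested genes were higher and 7.79% lower), with 1 higher and 1 lower at an unadjusted p under 0.05 and 0 with DESeq2 or limma voom, but without K562 replicate 1 there were 2 higher and 2 lower (9.56% and 9.94% of all tested genes), and without SSedit-2 replicate 2 or with upper-quartile scaling 1 was higher.

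PRC1, which binds the mark that PRC2 sets and ubiquitinates histone H2A, is represented by 19 tested subunits, of which 3 were higher and 10 lower in K/VP.5 cells (26.2% and 26.1% of all tested genes, list median -0.16). The largest difference from K562 was that of PCGF2, named after its values were seen (-0.97, adjusted p = 3.09e-08). The 2 that were 2-fold between SSedit-2 and K/VP.5 cells were PCGF5 (52.3 ± 12.4, 31.8 ± 3.08 and 67.9 ± 3.49 CPM, log2 fold change -0.71 from K562 to K/VP.5, adjusted p = 0.000169) and RYBP (55.1 ± 11.4, 28.9 ± 2.74 and 59.9 ± 3.29 CPM, -0.93, adjusted p = 4.72e-06), which belong to the variant forms of PRC1. None was 2-fold from K562 to K/VP.5 cells with edgeR, also at an unadjusted p under 0.05, with DESeq2 or with limma voom, but 1 was without K562 replicate 1 or 4 and 2 were without K/VP.5 replicate 2. In SSedit-2 against K562 cells 1 was higher, PCGF5 (0.38, adjusted p = 0.0702), and 1 was lower, KDM2B (-0.27, adjusted p = 0.00437), named after its values were seen, beside 4.86% and 7.79% of all tested genes. Without K562 replicate 1 there were 2 higher and 3 lower (9.56% and 9.94% of all tested genes). With DESeq2 or without SSedit-2 replicate 1, 2 were lower. PCGF5 was lost without K562 replicates 2, 3 or 4 or SSedit-2 replicates 1 or 4.

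Of 3 tested subunits of PR-DUB, which removes the H2A mark, ASXL1 was higher (0.27, adjusted p = 0.000865) and ASXL2 lower (-0.26, adjusted p = 0.0229) in K/VP.5 cells, where 26.2% of all tested genes were higher and 26.1% lower. Of the 2 H3K27 demethylases, KDM6B was higher there (0.29, adjusted p = 0.0108) and KDM6A did not pass. Of 4 H3K36 methyltransferases, whose mark steers DNMT3 enzymes, NSD2 was lower, with 326 ± 20.7 CPM in K562 cells, 185 ± 8.15 CPM in K/VP.5 and 316 ± 8.87 CPM in SSedit-2 cells (log2 fold change -0.82, SE 0.061, adjusted p = 1.32e-08), and 2 of the 4 were lower without K562 replicate 1 or 2. For SSedit-2 minus K562, 0 genes of these 3 lists passed with edgeR (4.86% of all tested genes were higher and 7.79% lower). Also 0 did at an unadjusted p under 0.05, and 0 did with DESeq2 or limma voom. Without K562 replicate 1 there was 1 higher PR-DUB gene, beside 9.56% of all tested genes.

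**Figure D5:**
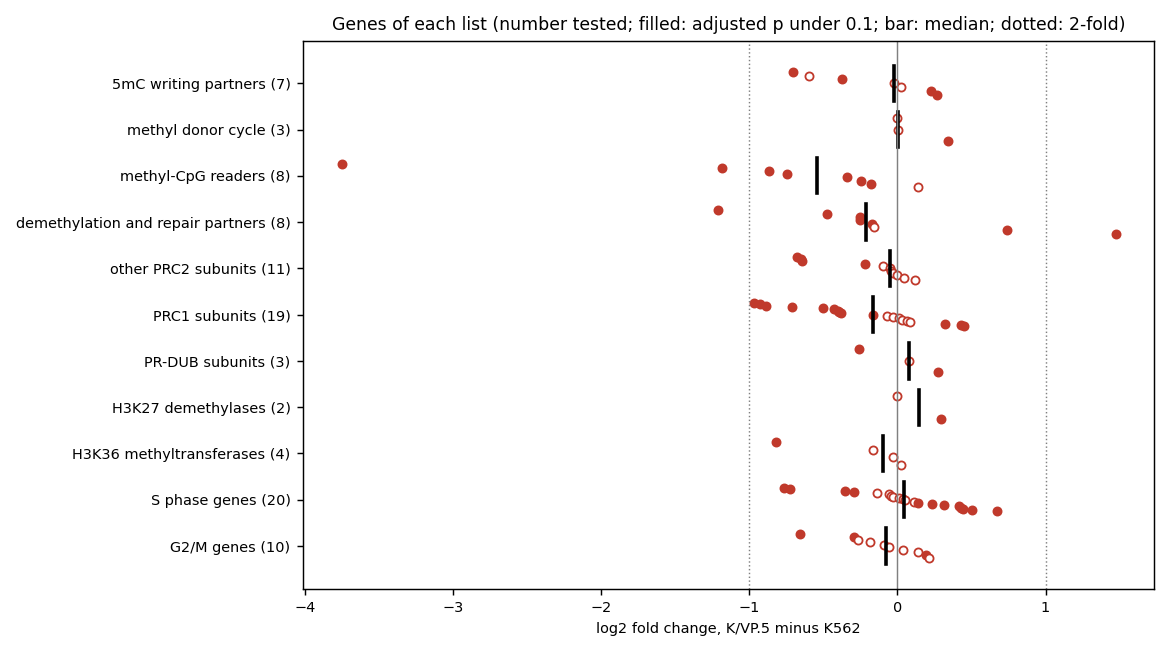
Log2 fold change, K/VP.5 minus K562 (horizontal axis), of the tested genes of each list, with filled points for an adjusted p under 0.1, bars for list medians and dotted lines at 2-fold. The median is -0.54 for the methyl-CpG readers, -0.05 for the other PRC2 subunits and -0.16 for the PRC1 subunits, beside 0.0067 over all tested genes.

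The position of these partners was set beside their values, as for the 10 genes. From K562 to K/VP.5 cells, several of the lower genes lay where the tested protein-coding genes within 5 Mb were lower too. On chromosome 10 the median around PCGF5 was -0.65 (46 genes), around HELLS -0.62 (53 genes) and around LCOR -0.55 (76 genes), and on chromosome 4 it was -0.63 around LCORL (17 genes) and -0.44 around NSD2 (59 genes). On chromosome X it was -0.54 around ZBTB33 (29 genes). EPOP and PCGF2, 6.7 and 6.77 Mb from SUZ12, lay among 137 genes with a median of -0.17. Others lay among genes with medians near 0: MBD1 (0.05 over 30 genes), USP7 (-0.06 over 49), IDH2 (0.09 over 40) and RYBP (0.09 over 13), like DNMT3A. Around ZBTB38 the median was -0.27 over 33 genes, with ZBTB38 itself at -3.75.

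Some germline genes are known to be kept silent in somatic cells by promoter methylation. Of 14 genes listed for this, 10 did not reach the tested set and had 0 to 3 counts in every sample. The 4 tested ones were SYCP3, MOV10L1, MEIOB and STK31. STK31 was the 1 that passed, as lower in K/VP.5 cells (26.1% of all tested genes), with 15 to 20 counts per sample in K562 cells, 0 to 5 in K/VP.5 cells and 7 to 14 in SSedit-2 cells, so no fold change is given. The most abundant was MEIOB, at 30.5 ± 6.48 CPM in K562 cells, 27.6 ± 4.14 CPM in K/VP.5 and 31.7 ± 3.49 CPM in SSedit-2 cells, which did not pass and was not silent in any line. Between SSedit-2 and K562 cells, 0 of the 4 passed with edgeR, at an unadjusted p under 0.05, or with DESeq2 or limma voom. With edgeR, 4.86% of all tested genes were higher in that comparison and 7.79% lower. No germline gene was higher in K/VP.5 cells by any of these counts, where 26.2% of all tested genes were higher with edgeR.

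Since DNMT1, UHRF1 and EZH2 are known to follow the cell cycle, the cycle genes are given beside them. Of 20 S phase genes, 8 were higher and 4 lower in K/VP.5 cells than in K562 (26.2% and 26.1% of all tested genes, list median 0.04), and their summed level was 4430 to 4550 CPM in K562 cells, 4670 to 4930 CPM in K/VP.5 and 4420 to 4600 CPM in SSedit-2 cells, with MCM7 the most abundant. RRM1 (-0.77, adjusted p = 3.58e-07) and SLBP (-0.73, adjusted p = 4.74e-07) had the largest differences, both as lower, against the direction of the sum. Of 10 G2/M genes, 1 was higher and 2 lower (the same shares of all tested genes apply), MKI67 (-0.66, adjusted p = 0.0022) and CDK1 (-0.29, adjusted p = 0.06), and their sum was 1240 to 1690 CPM in K562 (highest in replicate 1), 1300 to 1430 CPM in K/VP.5 and 1260 to 1460 CPM in SSedit-2 cells. Without K562 replicate 1, 3 G2/M genes were higher and 1 was lower in K/VP.5 cells, without any 1 of K562 replicates 2 to 4 there were 1 higher and 4 lower, without K/VP.5 replicate 2 or 4 there was 1 of each, and upper-quartile scaling gave 3 higher and 2 lower. In SSedit-2 against K562 cells, 1 S phase gene was higher, CDC6 (0.24, adjusted p = 0.0508), lost without SSedit-2 replicate 3 or 4, and 1 G2/M gene was lower, AURKB (-0.18, adjusted p = 0.0882), lost without any 1 library other than K562 replicate 1. With all samples, 4.86% of all tested genes were higher and 7.79% lower in this comparison. Both of these genes were named after their values were seen. Without K562 replicate 1, 3 G2/M genes were higher there, beside 9.56% of all tested genes. From K562 to K/VP.5 cells, the tested protein-coding genes within 5 Mb had medians of -0.53 around RRM1 (118 genes) and -0.46 around SLBP (56 genes). Around MKI67 the median was -0.52 (25 genes) and around CDK1 -0.22 (14 genes). The part of the cell cycle in the levels of the 10 genes was not tested.

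Markers of other cell types were also summed. T cell markers summed to 32.3 to 63.8 CPM in K562 cells, 15.8 to 22.2 CPM in K/VP.5 and 53.9 to 74.1 CPM in SSedit-2 cells, with 2 of 3 tested, CD3D the most abundant in K562 and SSedit-2 cells and CD3G in K/VP.5 cells, while the defining marker CD3E had 0 to 10 counts per sample. Fibroblast markers summed to 4.54 to 11.8, 46.4 to 58.2 and 4.47 to 8.26 CPM, mostly from COL1A2, with 2 of 3 tested and DCN at 0 to 37 counts, and both tested collagens were higher in K/VP.5 cells (log2 fold changes of 3.11 and 2.72). Monocyte markers summed to 2.11 to 2.48, 0.782 to 1.57 and 1.43 to 2.01 CPM, with 2 of 3 tested, LYZ the most abundant in K562 and SSedit-2 cells and CSF1R in K/VP.5 cells, where LYZ was lower (log2 fold change -2.27 from K562, adjusted p = 8.93e-06), and CD14 at 0 to 17 counts. Endothelial markers, 0 of 2 tested, reached 0.14 CPM at most, from VWF, with CDH5 at 0 in every sample. From K562 to K/VP.5 cells CD3D was lower (-1.97) and CD3G did not pass (0.19, adjusted p = 0.346), while CD3G was higher in SSedit-2 cells than in K562 (0.94, adjusted p = 0.000906). The part of other cell types in the levels of the 10 genes was not tested.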

How the data were processed

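RNA-seq data of 12 samples, 4 of each line, were used. The authors mapped reads to GRCh38 with HISAT2 and deposited counts per gene from featureCounts, without normalization. Genes were placed with GENCODE 44, in which 60401 of 60671 IDs were found, and promoter windows came from RefSeq (GRCh38.p14). In R 4.3.3 with edgeR 4.0.16, genes were filtered with filterByExpr (minimum count 10), scaled by TMM and compared with the quasi-likelihood F test in 1 fit of the 12 samples; p-values were adjusted over 18626 genes by Benjamini-Hochberg. A gene passed at an adjusted p under 0.1 and was 2-fold if its absolute log2 fold change also reached 1. Figures used Python 3.11.15 and matplotlib 3.10.9.

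Alternatives were DESeq2 size-factor and upper-quartile scaling, the DESeq2 1.42.0 Wald test, limma 3.58.1 voom, no filter, 1 CPM in 4 samples, only the lines compared, the replicate number as a block, an adjusted p under 0.05, and each library left out. The replicate number pairs samples by label; across genes, the distances of samples from the mean of their line had, at equal numbers, r of 0.14 to 0.29 between K562 and SSedit-2 (mean 0.2). Alternatives for list counts and the canonical length were chosen after the data were seen.

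Named are the 10 genes, in each list the genes called 2-fold in any comparison and otherwise the 2 with the largest log2 fold change past the test, and the 3 genes most like a gene whose line means differ by at least 1 (log2). The 10 genes and the lists were chosen with earlier results of these data known.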

Additional observations from a re-analysis of the deposited data

Results flagged for a closer look

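In 3 of 30 groups of 4 samples (1 gene in 1 line), 1 sample lay far from the others, where chance gives about 1 in 20 groups if groups are independent. They are not, since the 10 genes share 12 libraries and 2 of the 3 groups rest on K562 replicate 1, which stood apart across genes. The measure is the gap from that sample to the nearest other, divided by the range of the group. For UHRF1 in K562 cells it was 0.925, with replicate 1 at 240 CPM and the others at 302 to 307 CPM. For TET1 in K562 cells it was 0.988, with replicate 1 at 136 CPM and the others at 85.6 to 86.2 CPM. For DNMT3A in SSedit-2 cells it was 0.964, with replicate 3 at 65.7 CPM and the others at 55.1 to 55.5 CPM.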

How the results depend on the processing

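Over 10 genes, 3 comparisons and 17 alternatives, 463 values kept their direction and their side of the threshold, 19 lost a call, 10 gained one and 18 changed sign. The number of genes 2-fold in K/VP.5 minus K562 was 1 in place of 2 with upper-quartile scaling and 1 to 2 with single libraries left out. The number past the test in SSedit-2 minus K562 was 0 in place of 1 without the filter, where more genes are tested, and at an adjusted p under 0.05, and 0 to 3 with single libraries left out. TET2 in SSedit-2 minus K562 became 0.001 with size-factor scaling and the DESeq2 Wald test, 0.030 with upper-quartile scaling, 0.009 with voom and with only the lines compared, and 0.013 with the 1 CPM filter. In SSedit-2 minus K/VP.5, TET1 became -0.008 and EED -0.001 with upper-quartile scaling. With single libraries left out, TET2 ranged from -0.062 to 0.111 and UHRF1 from -0.106 to 0.005 in SSedit-2 minus K562, and TET3 from -0.044 to 0.064 and TET1 from -0.022 to 0.133 in SSedit-2 minus K/VP.5. None of these sign changes passed the test, and the cause was not tested. With the replicate number as a block, TET2 in SSedit-2 minus K562 was 0.002 and no call of the 10 genes changed. Over all 18626 tested genes, the number passing in that comparison was 3063 with the block and 2356 without it. The main list counts are from the fit without the block. Same-numbered samples had r of 0 to 0.27 between K562 and K/VP.5 and -0.1 to 0.16 between K/VP.5 and SSedit-2, so those lines are not shown to be paired. Counts are per gene, so start sites and splice forms were not separated, and protein, DNA methylation and histone marks were not analysed here.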
